A study of Mus musculus with 12 samples.

Results

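The 35 genes described here make the protein machinery of ribosome biogenesis, and the rule that lists them is their known function. Of the 35, 34 had a probe set of their own on the array and were measured, among 19937 genes in all; Npm3 had no probe set carrying its symbol alone and was not analysed here. The genes fall into 6 roles, with 5 measured genes of RNA polymerase I transcription, 4 encoding abundant nucleolar proteins, 3 of the box C/D and 4 of the box H/ACA small nucleolar ribonucleoproteins (snoRNPs), 8 of small subunit assembly and 10 of large subunit assembly.

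Transcripts were measured on 12 GeneChip Mouse Gene ST arrays of 3 populations from mouse fetal liver at E14.5, with 4 biological replicates each. Megakaryocytes (MEG) were grown in culture from KIT+ liver progenitors and collected on CD41 beads. Erythroblasts (ERY) were taken from the liver on Ter119 beads, and hematopoietic stem and progenitor cells (HSPC), which the labels call hematopoietic stem cells, were sorted as lineage-negative Sca1+ cells, both without culture. Only MEG had been cultured, so lineage and culture cannot be told apart in their differences, and neither the strain nor any pooling of livers is given in the sources used here. The question here was how the transcripts of ribosome production differed in MEG and in ERY from HSPC, and between both lineages. The study used HSPC as its reference point, and MEG were grown from cells selected by KIT, not Sca1.

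A ribosome is made in the nucleolus. RNA polymerase I copies the ribosomal DNA into a long precursor RNA, snoRNPs modify it at many positions, the box C/D particles by methylation of the ribose and the box H/ACA particles by turning uridine into pseudouridine, and a large set of assembly factors folds and cuts it and builds the small and the large subunit around it. Growing and dividing cells make many ribosomes, and the genes of this machinery are known as targets of MYC, which binds the E-box CACGTG. As they mature, erythroblasts stop dividing and condense their nucleus, while megakaryocytes grow into large polyploid cells.

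Promoter sequence was at hand for 29 of the 34 measured genes, and 27 of them had a single window. Each window ran from 250 bases before to 50 bases after the RefSeq start (mouse build GRCm38.p6). The E-box CACGTG, which reads the same on both strands, was present in 5 of these 27 windows (18.5%), in Nop2, Pes1, Rrn3, Utp20 and Wdr43, against 8.27% of the 12976 windows of genes in the array table. The ETS motif CCGGAAGT, searched on both strands, was also present in 5 of 27 (18.5%), in Gar1, Nhp2, Nip7, Polr1c and Rrn3, against 5.53%. Among 89 windows of other genes of the pathway 18.0% held the E-box and 27.0% the ETS motif, and among 36 of cytoplasmic ribosomal proteins 5.56% and 16.7%. The GATA motif AGATAA was found in 0 of 27 windows, against 9.76%, and the TATA box TATAAA in 2 of 27 (7.41%), in Dkc1 and Pes1, against 12.9%. These are matches of letters and no measured sites, and none of the motifs contains another. The windows of 4 genes are shown because they hold the E-box or the ETS motif (in capitals) in 3 genes that were lower in both lineages, Nop2, Pes1 and Polr1c, and in 1 that was called in neither, Rrn3.
Nop2 (chr6:125131633-125131932, + strand): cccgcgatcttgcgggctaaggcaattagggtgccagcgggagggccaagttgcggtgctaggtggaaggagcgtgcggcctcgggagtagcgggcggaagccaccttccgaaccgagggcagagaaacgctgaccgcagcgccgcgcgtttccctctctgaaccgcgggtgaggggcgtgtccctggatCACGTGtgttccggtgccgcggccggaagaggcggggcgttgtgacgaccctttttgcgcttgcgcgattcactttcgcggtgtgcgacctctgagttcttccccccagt
Pes1 (chr11:3963725-3964024, + strand): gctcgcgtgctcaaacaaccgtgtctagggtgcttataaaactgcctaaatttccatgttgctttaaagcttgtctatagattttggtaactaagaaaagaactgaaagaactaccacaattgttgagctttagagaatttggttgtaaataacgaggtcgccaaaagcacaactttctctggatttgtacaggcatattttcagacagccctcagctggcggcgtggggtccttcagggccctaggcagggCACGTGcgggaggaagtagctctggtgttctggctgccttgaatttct
Polr1c (chr17:46247996-46248295, - strand): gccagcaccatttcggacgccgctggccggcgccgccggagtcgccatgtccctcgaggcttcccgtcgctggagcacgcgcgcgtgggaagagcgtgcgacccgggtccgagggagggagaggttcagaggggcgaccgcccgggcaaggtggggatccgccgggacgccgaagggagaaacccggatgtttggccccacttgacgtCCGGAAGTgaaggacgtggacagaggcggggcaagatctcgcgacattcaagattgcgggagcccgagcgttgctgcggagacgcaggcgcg
Rrn3 (chr16:13780449-13780748, + strand): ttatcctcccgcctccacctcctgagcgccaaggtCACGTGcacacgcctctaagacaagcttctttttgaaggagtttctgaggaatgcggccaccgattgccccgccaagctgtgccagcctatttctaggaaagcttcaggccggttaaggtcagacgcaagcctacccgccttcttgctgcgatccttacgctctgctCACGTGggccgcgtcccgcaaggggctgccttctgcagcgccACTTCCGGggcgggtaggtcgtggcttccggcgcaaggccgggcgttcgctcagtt
The E-box of Nop2 began 60 bases before the start, and that of Pes1 2 bases after it. Rrn3 held a pair of E-boxes, 215 and 48 bases before the start, and an ETS motif on the other strand. Among the genes lower in both lineages 2 of 9 windows held an E-box (22.2%), and among those called in neither 2 of 12 (16.7%), and for the ETS motif the shares were 3 of 9 (33.3%) and 2 of 12 (16.7%). These counts are too small to rank the sets by either motif.

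The arrays did not lie equally close within each population, and this touches every value below. Over the 9969 genes at or above the median level, pairs of arrays correlated between 0.871 and 0.974 in MEG, between 0.976 and 0.993 in ERY and between 0.699 and 0.988 in HSPC, as a description across genes. MEG replicate 1 was the lowest of the MEG arrays for 32 of the 34 genes, against 32.5% of genes at or above the median level. ERY replicate 2 was the lowest ERY array for 33 of 34, against 41.9%. Among the HSPC arrays, replicates 3 and 4 both lay below replicates 1 and 2 for 19 of the 34 genes and both above them for 12, with mixed order for 3. The mean difference of the pairs ran from -2.34 to 1.20 on the log2 scale, and it exceeded 1 in size, with replicates 3 and 4 lower, for 12 genes (35.3%, against 19.8% of genes at or above the median level). The median SD of the 34 genes was 0.767 in MEG, 0.343 in ERY and 0.469 in HSPC, against 0.338, 0.157 and 0.404 for genes at or above the median level.

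**Figure D1:**
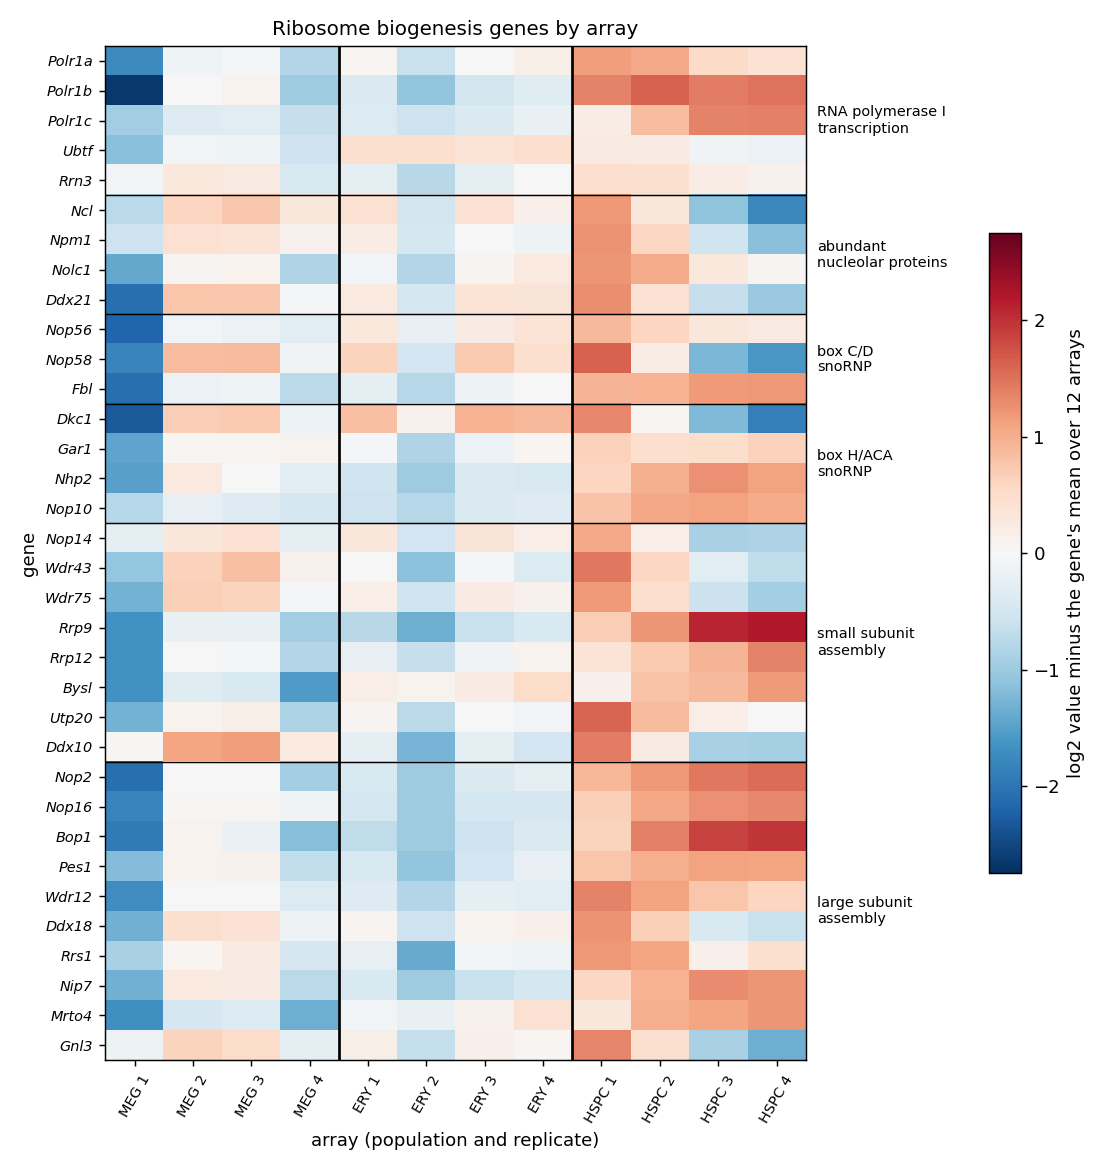
Level of each of the 34 measured genes (rows, by role) on each of the 12 arrays (columns, MEG, ERY and HSPC), as the log2 value minus the mean of the gene over all arrays. MEG replicate 1 and ERY replicate 2 are the bluest columns of their populations, and the HSPC arrays split in opposite directions for different genes, with Nop58 2.34 lower and Rrp9 1.20 higher in replicates 3 and 4.

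The labels of the populations were checked on marker genes. All 9 measured megakaryocyte markers were higher in MEG than in HSPC, with array medians of 12.48 to 12.72 in MEG, 7.41 to 8.06 in ERY and 7.86 to 9.17 in HSPC, and all 13 erythroblast markers were higher in ERY than in HSPC. Of 11 stem and progenitor markers, 6 were lower and 2 higher in MEG than in HSPC, and 8 were lower and 0 higher in ERY. The 15 hepatocyte markers had array medians of 5.24 to 5.56 in MEG, 10.12 to 11.13 in ERY and 7.87 to 9.52 in HSPC, with 14 called lower in MEG and 14 called higher in ERY against HSPC. Of 13 macrophage markers 8 were higher in ERY, and of 12 granulocyte markers 6 were lower in MEG and 7 lower in ERY. The part of such other cells in the results below was not tested.

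In MEG, 19 of the 34 ribosome biogenesis genes were lower than in HSPC and 0 were higher, at more than a 2-fold change and an adjusted p under 0.05, with a median difference of -1.17 on the log2 scale. In the table as a whole 11.4% of genes were lower and 8.77% higher by the same rule, and among genes at or above the median level, where all 34 genes lie by their mean over the arrays, 20.5% were lower. In ERY, 14 of the 34 were lower than in HSPC and 0 were higher, with a median of -0.82, against 12.3% lower and 8.35% higher in the whole table and 22.1% lower among genes at or above the median level. At a nominal p under 0.05, too, 0 genes were higher in either lineage. Both comparisons use the same HSPC arrays and are therefore not independent of each other. In the direct comparison, MEG was below ERY for 2 genes and above it for 0, with a median of -0.10, against 7.77% lower and 8.75% higher among all genes. In whole populations of cells, fewer cells that make a transcript cannot be told apart from less of it in each cell.

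By gene, 13 were lower in both lineages (Polr1b, Polr1c, Fbl, Nhp2, Nop10, Rrp9, Rrp12, Nop2, Nop16, Bop1, Pes1, Wdr12 and Nip7). A further 6 passed the test in MEG only (Polr1a, Nolc1, Nop56, Bysl, Utp20 and Mrto4), 1 in ERY only (Rrs1), and 14 in neither. For these 7, only Bysl and Mrto4 differed between MEG and ERY when this difference was itself tested. At the threshold, Utp20 lay just inside with a log2 difference of -1.14 in MEG and Rrs1 just outside with -0.98.

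**Figure D2:**
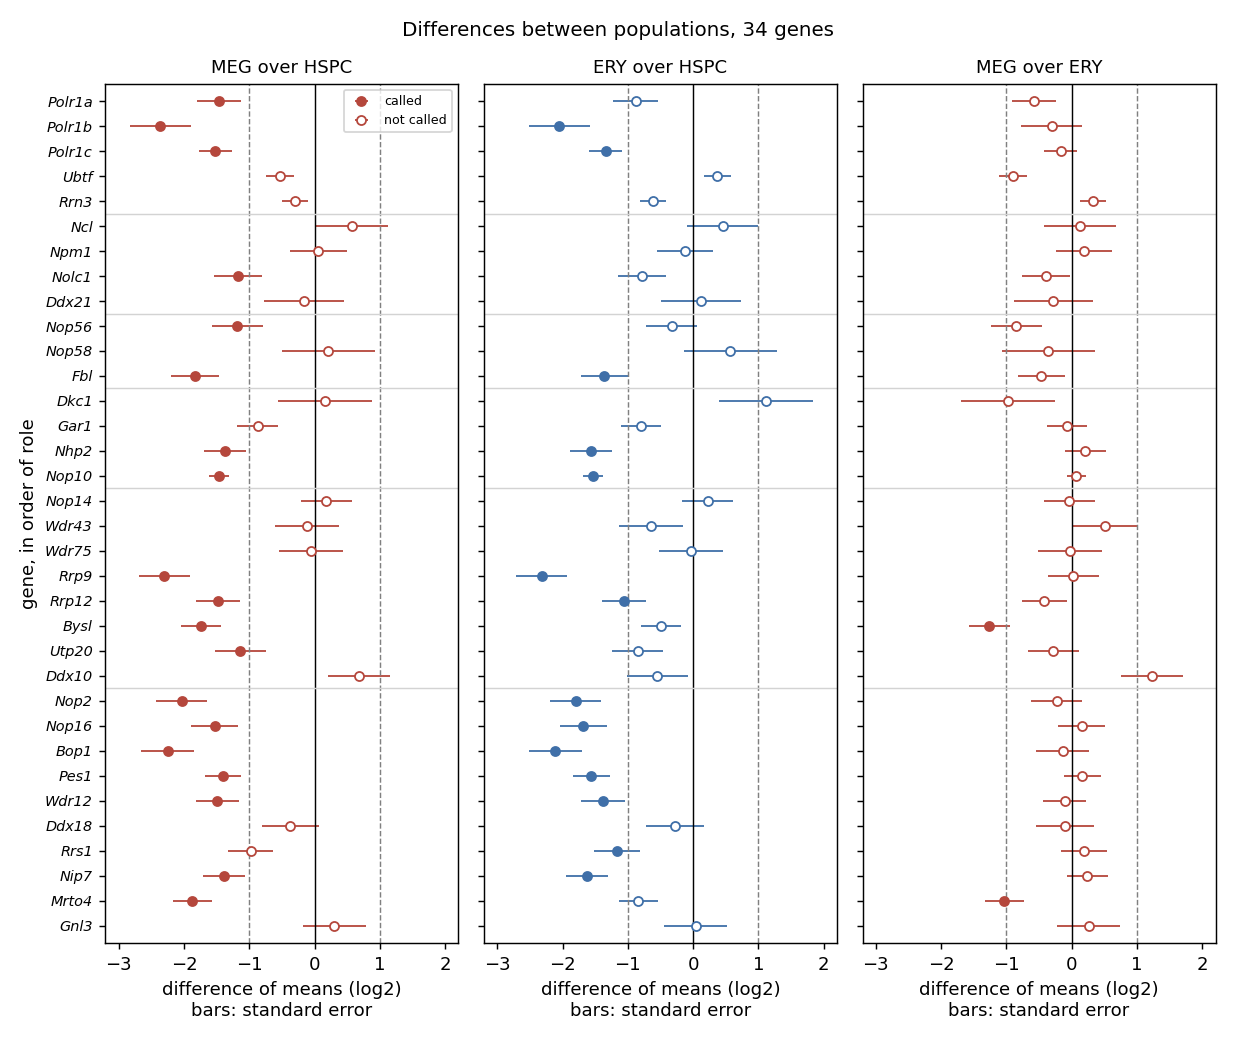
Difference of population means (log2, points) with its standard error (bars) for 34 genes in order of role, in MEG over HSPC, ERY over HSPC and MEG over ERY. Filled points passed both thresholds, dashed lines mark a 2-fold change, and the lowest points are Polr1b, Rrp9, Bop1 and Nop2 in both panels against HSPC.

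Of the 5 genes of RNA polymerase I transcription, 3 were lower in MEG and 2 in ERY. Polr1b, which encodes the second largest subunit, had log2 values of 6.67, 9.31, 9.42 and 8.36 in MEG, 8.93, 8.24, 8.82 and 9.0 in ERY, and 10.69, 10.96, 10.73 and 10.82 in HSPC. No MEG or ERY array reached the HSPC arrays, and MEG replicate 1 lay far below the other MEG arrays. The difference was -2.36 ± 0.47 (log2, SE, adjusted p = 0.00188) in MEG, 5.14-fold lower, and -2.05 ± 0.47 (adjusted p = 0.00446) in ERY, 4.15-fold lower. Without MEG replicate 1 the MEG difference was -1.77 (adjusted p = 0.000324).

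Polr1c, a subunit shared by RNA polymerases I and III, was lower, at -1.52 ± 0.25 in MEG and -1.34 ± 0.25 in ERY (log2, SE), with adjusted p of 0.000467 and 0.000976. Its arrays also did not overlap those of HSPC. Polr1a, the largest, catalytic subunit, had 6.72, 8.35, 8.45 and 7.66 in MEG, 8.52, 7.85, 8.49 and 8.63 in ERY and 9.62, 9.51, 8.99 and 8.88 in HSPC. All arrays of both lineages lay below HSPC, yet only the MEG difference passed the test (-1.46 ± 0.34, adjusted p = 0.00561), that of ERY being -0.88 ± 0.34 (adjusted p = 0.0713).

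Ubtf, the factor that binds along the ribosomal DNA and opens it for the polymerase, was called in no comparison. It had 9.32, 10.41, 10.37 and 9.90 in MEG, 10.91, 10.91, 10.86 and 10.93 in ERY, and 10.73, 10.70, 10.39 and 10.31 in HSPC. The ERY arrays were nearly equal and lay above every MEG and every HSPC array. MEG was 1.87-fold below ERY (-0.90 ± 0.21, adjusted p = 0.00661), under the 2-fold needed for a call, and neither lineage was called against HSPC (-0.53 in MEG and 0.37 in ERY). Rrn3, which brings the polymerase to its promoter, differed by -0.30 in MEG and by -0.62 in ERY (adjusted p = 0.270 and 0.0274), under 2-fold in both.

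Of the 4 abundant nucleolar proteins only Nolc1, a chaperone of snoRNPs, was called, lower in MEG at -1.17 ± 0.37 (adjusted p = 0.0286), and its MEG and HSPC arrays overlapped by 0.01. This call was kept in 8 of the 12 fits that each left out 1 array, and was lost with HSPC replicates 3 and 4 alone (-0.70). Ncl, nucleolin, a main RNA-binding protein of the nucleolus, had 10.20, 11.54, 11.69 and 11.25 in MEG, 11.35, 10.44, 11.33 and 11.07 in ERY, and 12.14, 11.26, 9.84 and 9.16 in HSPC. The HSPC arrays reached both above and below all arrays of the lineages, so that the differences of 0.57 ± 0.55 in MEG and 0.45 ± 0.55 in ERY were about the size of their errors. Npm1, an abundant nucleolar chaperone, differed by 0.06 ± 0.43 in MEG and -0.12 ± 0.43 in ERY, and Ddx21, an RNA helicase, by -0.16 ± 0.61 and 0.12 ± 0.61. Their HSPC arrays split the same way, by -1.75 for Npm1 and -1.67 for Ddx21.

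In the box C/D particle, 2 of 3 genes were lower in MEG and 1 of 3 in ERY. Fbl, the methyltransferase fibrillarin, had 7.68, 9.60, 9.63 and 9.02 in MEG, 9.49, 8.97, 9.62 and 9.75 in ERY, and 10.68, 10.71, 10.93 and 10.94 in HSPC. All 8 arrays of the lineages lay below HSPC, and the difference was -1.83 ± 0.36 (adjusted p = 0.00156) in MEG and -1.36 ± 0.36 (adjusted p = 0.00980) in ERY. Nop56, one of the scaffold proteins of the particle, was lower in MEG (-1.18 ± 0.39, adjusted p = 0.0332) but not called in ERY (-0.33 ± 0.39), and the MEG call was kept in 8 of the 12 fits that each left out 1 array, and with neither pair of HSPC arrays alone.

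Nop58, the partner of Nop56 in the same particle, had 6.68, 9.35, 9.36 and 8.41 in MEG, 9.12, 7.97, 9.21 and 8.93 in ERY, and 10.12, 8.71, 7.24 and 6.90 in HSPC. The HSPC arrays ran over nearly the whole range of the lineages, and no difference passed the test (0.21 ± 0.71 in MEG and 0.57 ± 0.71 in ERY). The second probe set of Fbl gave means of 9.01 in MEG, 9.22 in ERY and 10.32 in HSPC, in the order of the first.

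In the box H/ACA particle, 2 of 4 genes were lower in each lineage. Nop10, the smallest protein of the particle, had 9.95, 10.51, 10.38 and 10.28 in MEG, 10.17, 9.95, 10.34 and 10.38 in ERY, and 11.53, 11.81, 11.86 and 11.77 in HSPC. Its arrays were the tightest of the 34 genes in MEG, more than 1 log2 unit separated HSPC from each lineage, and the difference was -1.46 ± 0.15 in MEG (adjusted p = 1.65e-05) and -1.53 ± 0.15 in ERY (adjusted p = 7.18e-06). Nhp2, another core protein, was lower, at -1.37 ± 0.32 in MEG and -1.57 ± 0.32 in ERY (adjusted p = 0.00481 and 0.00182), the MEG call being lost without MEG replicate 1 and with HSPC replicates 1 and 2 alone (-1.17, adjusted p = 0.0595). Dkc1, the pseudouridine synthase dyskerin, had 6.21, 9.20, 9.23 and 8.35 in MEG, 9.35, 8.63, 9.48 and 9.40 in ERY, and 9.84, 8.57, 7.31 and 6.64 in HSPC. Its MEG and HSPC arrays were spread over more than 3 log2 units each, and the differences of 0.16 ± 0.72 in MEG and 1.12 ± 0.72 in ERY were not called. Gar1 was lower on every MEG and ERY array than on any HSPC array, with differences of -0.87 and -0.80. These passed neither threshold, being under 2-fold with adjusted p of 0.0502 in MEG and 0.0714 in ERY.

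**Figure D3:**
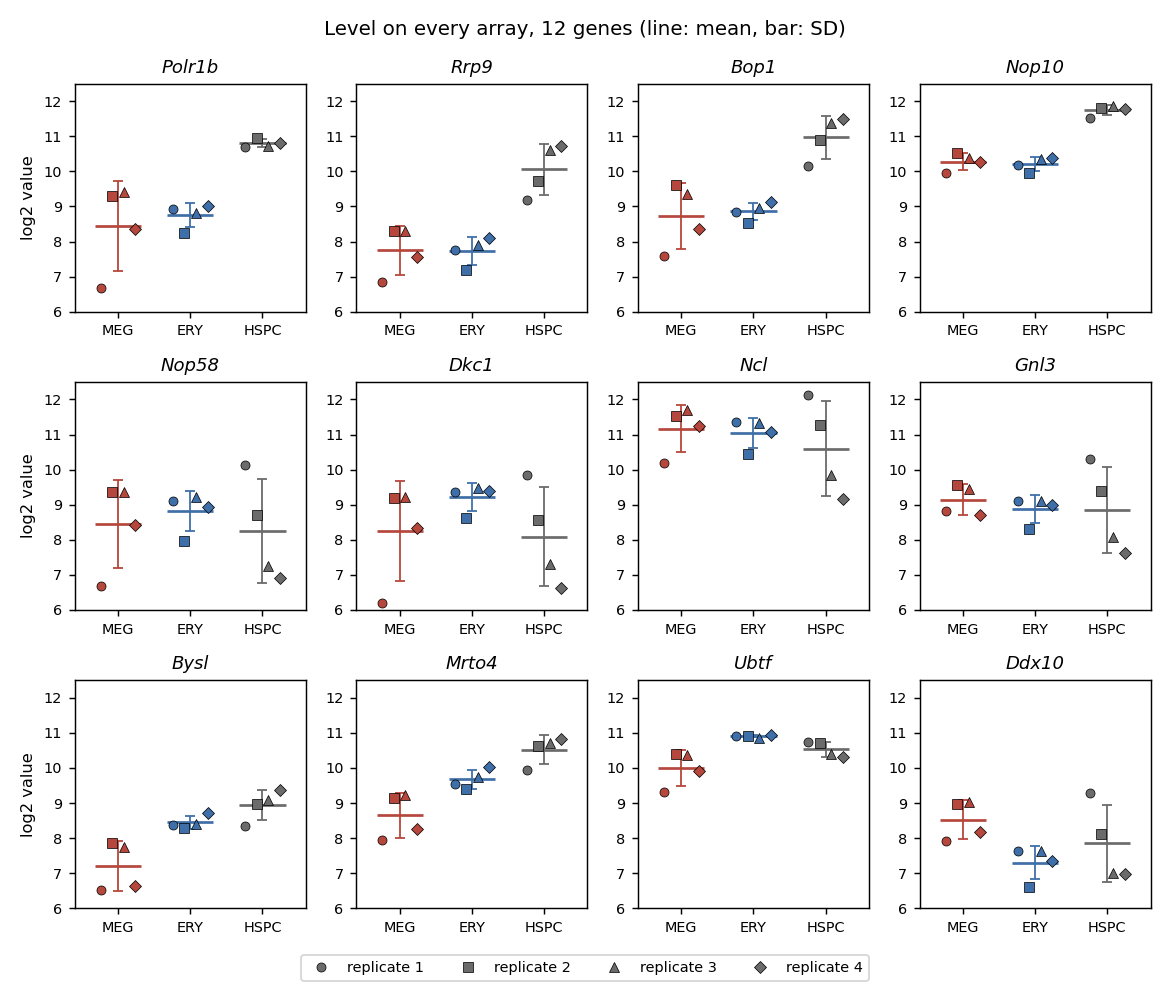
Log2 value of 12 genes on every array of MEG, ERY and HSPC, with the mean (line), the SD (bar) and the replicate number (symbol). The top row holds genes lower in both lineages whose HSPC arrays all lie above MEG and ERY, the middle row genes whose HSPC arrays run over more than 2 log2 units, and the bottom row the genes that separated MEG from ERY.

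In small subunit assembly, 4 of 8 genes were lower in MEG and 2 of 8 in ERY (25.0%), the share in ERY being near the 22.1% of genes at or above the median level. Rrp9, a protein of the U3 snoRNP that guides the first cuts of the precursor, had 6.84, 8.30, 8.31 and 7.56 in MEG, 7.75, 7.18, 7.91 and 8.09 in ERY, and 9.19, 9.72, 10.61 and 10.71 in HSPC. All arrays of both lineages, which overlapped each other, lay below HSPC, and the HSPC arrays differed among themselves by up to 1.52. The difference was -2.30 ± 0.39 (adjusted p = 0.000637) in MEG and -2.32 ± 0.39 (adjusted p = 0.000514) in ERY, 4.92-fold and 5.0-fold lower. It was smaller with HSPC replicates 1 and 2 alone (-1.70 and -1.72) than with 3 and 4 alone (-2.90 and -2.93), and called with either.

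Rrp12, which in yeast helps to carry both subunits out of the nucleus, was lower, at -1.48 ± 0.34 in MEG and -1.06 ± 0.34 in ERY (adjusted p = 0.00496 and 0.0301), and the ERY call was kept in 6 of the 12 fits that each left out 1 array and lost with HSPC replicates 1 and 2 alone (-0.76, adjusted p = 0.207). Utp20, a large scaffold protein of the early particle, was lower in MEG only (-1.14 ± 0.39, adjusted p = 0.0407), and this call was kept in 5 of the 12 fits and lost with HSPC replicates 3 and 4 alone (-0.57, adjusted p = 0.276). Nop14, Wdr43 and Wdr75, further proteins of that particle, differed by 0.18, -0.12 and -0.05 in MEG and by 0.22, -0.64 and -0.04 in ERY, with errors of 0.39 to 0.49. The HSPC arrays of these 3 genes split by -1.48 to -1.59.

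In large subunit assembly, 7 of 10 genes were lower in each lineage, and 6 of them were shared. Bop1, Pes1 and Wdr12 encode the 3 proteins of one complex that works on the precursor of the large subunit, and all 3 were lower in both lineages. Bop1 had 7.58, 9.62, 9.34 and 8.35 in MEG, 8.83, 8.54, 8.96 and 9.12 in ERY, and 10.14, 10.90, 11.38 and 11.48 in HSPC. The gap between the highest lineage array and the lowest HSPC array was 0.52 in MEG and 1.02 in ERY, and the difference was -2.25 ± 0.41 (adjusted p = 0.00103) in MEG, 4.76-fold lower, and -2.11 ± 0.41 (adjusted p = 0.00145) in ERY, 4.32-fold lower. Pes1 had 7.79, 9.08, 9.10 and 8.31 in MEG, 8.54, 7.90, 8.46 and 8.76 in ERY, and 9.74, 9.99, 10.10 and 10.08 in HSPC. These gave -1.40 ± 0.28 (adjusted p = 0.00180) in MEG and -1.56 ± 0.28 (adjusted p = 0.000779) in ERY, again with no overlap. Wdr12 was lower, at -1.49 ± 0.33 and -1.38 ± 0.33, and its second probe set, with means of 6.93 in MEG, 7.12 in ERY and 8.49 in HSPC, kept that order.

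Nop2, a methyltransferase that modifies a cytosine of the large subunit RNA and was first described as a proliferation antigen, had 6.97, 9.05, 9.06 and 8.10 in MEG, 8.62, 8.07, 8.65 and 8.77 in ERY, and 9.97, 10.24, 10.50 and 10.59 in HSPC. All arrays of both lineages lay at least 0.91 below the lowest HSPC array, and the difference was -2.03 ± 0.39 (adjusted p = 0.00138) in MEG and -1.80 ± 0.39 (adjusted p = 0.00292) in ERY. Nop16 and Nip7, assembly factors of the large subunit, were lower, at -1.53 and -1.39 in MEG and at -1.68 and -1.63 in ERY. Rrs1, needed in yeast for the 5S particle to join the large subunit, was called in ERY only (-1.17 ± 0.35, adjusted p = 0.0198), and this call was lost without ERY replicate 2, without HSPC replicate 2 and with HSPC replicates 3 and 4 alone (-0.74). The helicase gene Ddx18 differed by -0.37 in MEG and -0.28 in ERY, with an error of 0.44.

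Gnl3, which encodes nucleostemin, a GTP-binding nucleolar protein named for its level in stem cells, had 8.81, 9.57, 9.46 and 8.71 in MEG, 9.11, 8.30, 9.10 and 9.0 in ERY, and 10.29, 9.39, 8.07 and 7.61 in HSPC. One HSPC array lay above all others, and a pair of HSPC arrays lay below every array of MEG and ERY. The differences were 0.30 ± 0.48 in MEG and 0.04 ± 0.48 in ERY, neither called.

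Which genes were called went with how their HSPC arrays split. Of the 13 genes lower in both lineages, HSPC replicates 3 and 4 lay above 1 and 2 in 10 and below them in 1 (Wdr12), with mixed order in 2. Of the 14 genes called in neither, they lay below in 13 and above in 0. The split enters both the HSPC mean and the spread of each gene, so the differences to HSPC are not independent of it. With HSPC replicates 1 and 2 alone, 15 genes were lower in MEG and 13 in ERY, and 0 were higher in either. Of the 9969 genes at or above the median level, 1692 were lower and 925 higher in MEG with this pair. In ERY it was 1932 and 1026. With replicates 3 and 4 alone, 16 were lower in MEG and 13 in ERY, and 3 were higher in each. These 3 were Ncl, Ddx10 and Gnl3 in MEG and Ncl, Dkc1 and Gnl3 in ERY. Of the 9969 genes at or above the median level, 2296 were higher in MEG and 2269 in ERY with replicates 3 and 4. That is a larger share than 3 of 34. Lower with that pair were 2472 of the 9969 in MEG and 2530 in ERY, more than with replicates 1 and 2. The background of lower genes thus also moved with the choice of HSPC arrays.

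The sign of several means thus turned with the choice of HSPC arrays. Ncl differed in MEG by -0.53 (adjusted p = 0.380) against HSPC replicates 1 and 2 and by 1.67 (adjusted p = 0.00611) against 3 and 4, and in ERY by -0.65 and 1.55. Gnl3 differed in MEG by -0.70 and 1.30 and in ERY by -0.96 and 1.04. For Dkc1 the values were -0.95 and 1.27 in MEG, neither called, and 0.01 and 2.24 in ERY, both above 0. In contrast, 12 genes were lower in MEG and 9 in ERY with all 4 HSPC arrays and with either pair. Of these, 6 were lower in both lineages, Polr1b, Nop10, Rrp9, Nop2, Bop1 and Pes1. The share of all genes that held in this way was not computed, so these counts have no background beside them. All 6 genes also stayed lower in both lineages when any 1 of the 12 arrays was left out. Pes1 lost its MEG call when each array was centred on the cytoplasmic ribosomal protein genes.

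**Figure D4:**
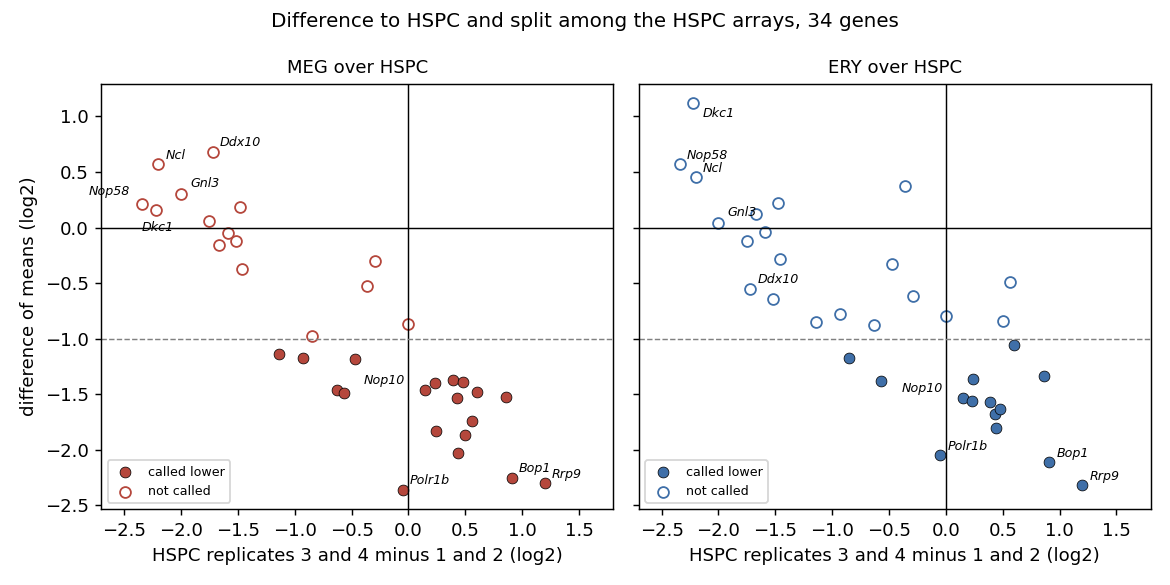
Difference of MEG (left) and ERY (right) from HSPC on the vertical axis (log2) against the mean of HSPC replicates 3 and 4 minus that of replicates 1 and 2 on the horizontal axis (log2), 1 point for each of 34 genes, filled where called lower; the dashed line marks a 2-fold change. The HSPC arrays enter both axes. Genes with replicates 3 and 4 far below 1 and 2, such as Nop58 at -2.34 and Ncl at -2.20, lie near 0 or above, and Rrp9, at 1.20, lies among the lowest.

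The direct difference of the lineages uses no HSPC mean, and 32 of the 34 genes were not called in it. Bysl, bystin, a factor of small subunit assembly, had 6.53, 7.87, 7.76 and 6.63 in MEG, 8.38, 8.30, 8.41 and 8.71 in ERY, and 8.34, 8.97, 9.08 and 9.36 in HSPC. Every MEG array lay below every ERY array, which overlapped with HSPC, and MEG was 2.39-fold below ERY (-1.26 ± 0.31, adjusted p = 0.00883). This call held without any single array, with adjusted p up to 0.0306.

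Mrto4, whose yeast counterpart holds the place of the stalk protein on the unfinished large subunit, had 7.94, 9.15, 9.23 and 8.27 in MEG, 9.53, 9.41, 9.74 and 10.03 in ERY, and 9.93, 10.62, 10.71 and 10.83 in HSPC. MEG again lay wholly below ERY, 2.04-fold (-1.03 ± 0.30, adjusted p = 0.0213), and its second probe set gave means of 6.77 in MEG, 7.90 in ERY and 8.83 in HSPC. The call was kept in 8 of the 12 fits that each left out 1 array, and the difference ran from -1.22 to -0.79 among them. Ddx10, a helicase gene, showed the opposite order, with 7.93, 8.97, 9.04 and 8.17 in MEG, 7.62, 6.61, 7.62 and 7.36 in ERY, and 9.29, 8.13, 7.0 and 6.97 in HSPC. All MEG arrays were above all ERY arrays, but the difference of 1.23 ± 0.47 did not pass the test over all genes and arrays (adjusted p = 0.0792). It did pass with either pair of HSPC arrays (adjusted p = 0.0205 with 1 and 2, 0.00748 with 3 and 4). It also passed in the fit of the 8 MEG and ERY arrays and among genes at or above the median level. The difference was 1.23 in each of these fits, which changed only the spread or the genes tested. With 1 pair alone, the split between the HSPC pairs no longer entered the spread, so these passes are no separate support.

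The distance between the lineages moved with MEG replicate 1. Without it, the median difference of MEG from ERY over the 34 genes was 0.28 in place of -0.10, 15 genes in place of 19 were lower in MEG than in HSPC, with a median of -0.86, and Bysl was the 1 gene that remained lower in MEG than in ERY. The calls lost in MEG over HSPC were Nolc1, Nop56, Nhp2 and Utp20. Without ERY replicate 2, 12 genes in place of 14 were lower in ERY than in HSPC, with a median of -0.64, and Rrp12 and Rrs1 were no longer called.

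The rest of the pathway was read from 5 further lists, which held 124 genes, 118 of them measured. Of these, 44 were lower and 0 higher in MEG than in HSPC, with a median of -0.68, and 37 were lower and 1 higher in ERY, with a median of -0.64. The 44 and 37 genes are 37.3% and 31.4% of the 118, against 20.5% and 22.1% of genes at or above the median level. Between the lineages 2 were lower (1.69%) and 1 higher (0.847%) in MEG than in ERY, with a median of -0.16. Among all genes 7.77% were lower and 8.75% higher, and among genes at or above the median level 13.5% and 15.2%. The pathway was thus called less often between the lineages than other genes. Per list, MEG and ERY were below HSPC for 3 and 3 of 9 further RNA polymerase I factors. In small subunit assembly they were below it for 14 and 13 of 37 factors, and in large subunit assembly for 15 and 12 of 43. For nucleases and associated proteins that process the precursor the counts were 8 and 6 of 20, and for snoRNP assembly factors 4 and 3 of 9. The shares of single lists ran from 33.3% to 44.4% in MEG and from 27.9% to 35.1% in ERY, the lowest of them close to that background. With HSPC replicates 3 and 4 alone, 15 of the 118 were called higher in MEG and 14 in ERY. Among all 19937 genes, 2525 were then higher in MEG and 2448 in ERY, which are similar shares. Of the 9969 genes at or above the median level it was 2296 and 2269, which are larger shares. These higher calls therefore do not set the pathway apart from other genes.

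The largest falls in MEG over HSPC were those of Tbl3, a scaffold protein of the early small subunit, with means of 7.33 ± 0.67 in MEG and 9.85 ± 0.62 in HSPC (SD, n = 4 each; -2.52 ± 0.35, SE, adjusted p = 0.000141), and of Wdr18, a factor of large subunit assembly (-2.40 ± 0.29, adjusted p = 5.67e-05). In ERY they were those of Rpp40, a protein of the RNase P and RNase MRP complexes (-2.24 ± 0.31; its mean of 4.86 in ERY lay below the median of all genes, 6.53, so the size of this fall is uncertain), and Exosc5, a protein of the RNA exosome (-2.16 ± 0.27). Mtrex, the helicase that feeds RNA to the exosome, rose in ERY by 1.29 ± 0.44 (adjusted p = 0.0384), but its difference was 0.39 (adjusted p = 0.378) against HSPC replicates 1 and 2 alone. Between the lineages, Utp11 was higher in MEG (1.15 ± 0.37, adjusted p = 0.0342), and Pop5 (-1.65 ± 0.32, adjusted p = 0.00176) and Tbl3 (-1.02 ± 0.35, adjusted p = 0.0461) were lower in MEG than in ERY.

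The cytoplasmic ribosomal protein genes differed less than the 34 genes, and the mitochondrial ones nearly as much in MEG. Of 53 measured cytoplasmic ribosomal protein genes, 8 were lower in MEG (15.1%) and 2 in ERY (3.77%) than in HSPC. Their medians were -0.51 and -0.37, and 0 were called between the lineages. Of 74 mitochondrial ribosomal protein genes, 38 were lower in MEG (51.4%) and 19 in ERY (25.7%). Their medians were -1.07 and -0.69, and 9 (12.2%) were lower in MEG than in ERY. Among all genes 11.4% were lower in MEG and 12.3% in ERY than in HSPC. Among genes at or above the median level it was 20.5% and 22.1%, and 13.5% were lower in MEG than in ERY. When each array was centred on the cytoplasmic ribosomal protein genes, which moved the median of all genes by 0.44 in MEG over HSPC and 0.36 in ERY over HSPC, 13 of the 34 ribosome biogenesis genes were still lower in MEG and 10 in ERY, and Ddx10 was higher in MEG. Of all 19937 genes, 1149 were lower in MEG and 1535 in ERY after this centring, and 3473 were higher in MEG.

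**Figure D5:**
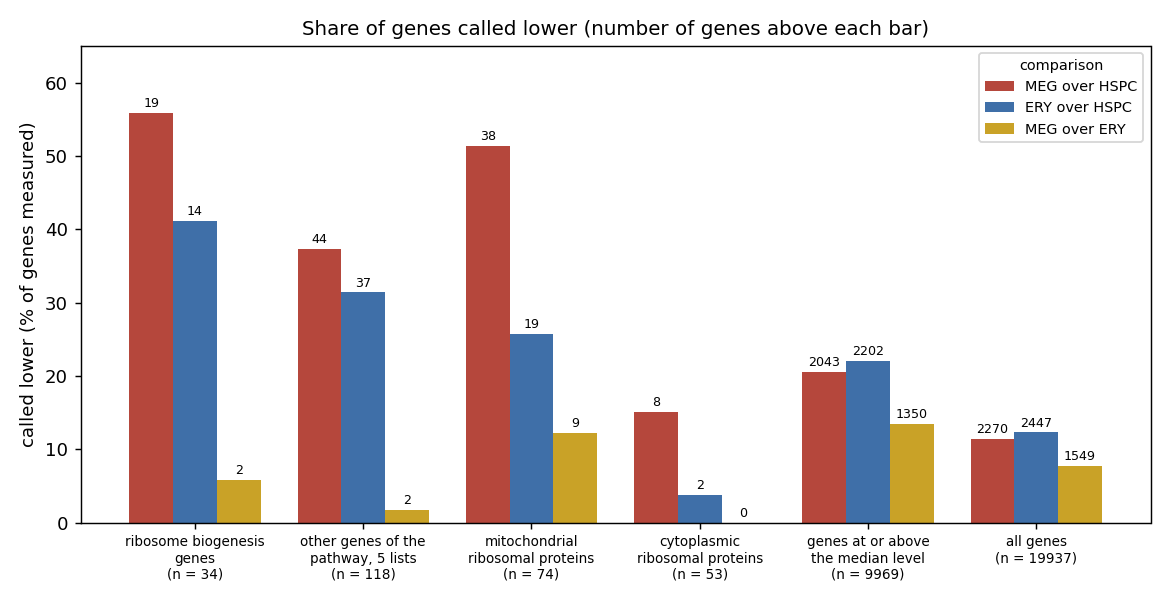
Share of genes called lower (%) in MEG over HSPC, ERY over HSPC and MEG over ERY, for the 34 ribosome biogenesis genes, the other genes of the pathway, mitochondrial and cytoplasmic ribosomal proteins, genes at or above the median level and all genes, with the number of genes above each bar. The 19 and 14 genes lower in MEG and ERY are 55.9% and 41.2% of the 34, against 11.4% and 12.3% of all genes.

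Gene size was set beside the calls as a description, with no test. The 13 genes lower in both lineages had a median span of 10.4 kb in the RefSeq annotation (0.97 to 36.7), and the 14 called in neither one of 20.4 kb (6.50 to 150), with ranges that overlapped.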

How the data were processed

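RNA of 12 samples, 4 each of MEG, ERY and HSPC, was hybridized to 1 GeneChip array each. The deposited table holds log2 values that the authors had computed with RMA; the sources used here give neither its version nor its settings. RMA corrects background and equalizes arrays, so a shift common to most genes would not be seen; array medians were 5.99 to 6.25. No read depth applies, and the number of arrays limits the precision.

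Of 34760 probe sets, 21640 carried 1 symbol and gave 19937 genes; 1321 carried several symbols and 11799 were not in the annotation used, and these were left out. For the 954 genes with several probe sets, that with the highest mean was taken; the 3 further probe sets of Npm1 shared with another symbol were not used. In R 4.3.3, limma 3.58.1 (lmFit, eBayes) was fitted on all 12 arrays with a mean for each population, and p-values were adjusted by Benjamini-Hochberg over the 19937 genes. A gene was called at over 2-fold and an adjusted p under 0.05, as in the study's methods. The study's limit for expressed genes was not used here. The script was checked on simulated data.

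The 35 genes, the other lists and the split of the HSPC arrays were chosen with earlier results of these data known. Named are all members and, of the other pathway lists, at most the 2 largest called changes each way per comparison. Summaries and plots used pandas 2.3.3, numpy 2.4.6 and matplotlib 3.10.9 under Python 3.11.15. Alternatives were fits of 8 arrays, with a replicate block, with either pair of HSPC arrays, of genes at or above the median level, after quantile normalization, after centring on ribosomal protein genes, with probe sets averaged, with other variance models, without each array, and at other thresholds. Replicates are biological per the methods, though shared litters are not stated.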

Additional observations from a re-analysis of the deposited data

Results flagged for a closer look

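Of 102 groups of 4 arrays (34 genes in 3 populations), 10 held an array that lay apart from the other 3. Its gap, as a share of the whole range of the group, exceeded Dixon's limit for 4 samples. Chance gives about 1 in 20 for a single group. The 34 genes were read on the same arrays, so the groups are not independent and their number cannot be judged against that rate. ERY replicate 2 was that array in 7 groups and MEG replicate 1 in 3, each time as the lowest array.

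In ERY replicate 2, Nop16 had 9.53 against 10.02 to 10.05 on the other ERY arrays (gap over range 0.941), Ddx18 had 8.20 against 8.84 to 8.89 (0.923), and Rrs1 had 5.33 against 6.49 to 6.64 (0.886). Ddx21 (0.874), Gnl3 (0.872), Wdr75 (0.845) and Dkc1 (0.842) were also low there. In MEG replicate 1, Gar1 had 7.61 against 9.11 to 9.15 (0.976), Nop16 had 8.70 against 10.41 to 10.55 (0.922), and Nop56 had 8.70 against 10.59 to 10.81 (0.898). These 2 arrays also stood low for the other genes of the pathway, with a median deviation from the gene means of -0.48 in ERY replicate 2 and -0.89 in MEG replicate 1, against -0.13 and -0.25 for cytoplasmic ribosomal protein genes. They were not alone in this: MEG replicate 4, which was set apart for none of the 34 genes, had -0.52 for the other genes of the pathway.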

How the results depend on the processing

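The count of genes lower in MEG than in HSPC was 13 to 20 and that in ERY 10 to 16 over all alternatives run, against 19 and 14. Centring on ribosomal protein genes gave the lowest, 13 and 10, with 1 gene higher in MEG and 1 lower in MEG than in ERY; over all genes it moved the share of calls that were higher to 75.1% in MEG over HSPC and 63.6% in ERY over HSPC, against 43.5% and 40.5%. With array weights 14 and 13 genes were lower, and 8 were higher in MEG and 3 in ERY than in HSPC. Of all 19937 genes, 2653 were then higher and 2391 lower in MEG. In ERY it was 2340 and 2756. Both lower counts and the 8 higher in MEG are larger shares than these, and the 3 higher in ERY a smaller one. No background is given here for genes at or above the median level in this setting. Between the lineages 0 of the ribosome biogenesis genes were lower and 1 higher, with a median of 0.29. Ddx21 (1.16) and Wdr75 (1.07) turned to higher in MEG than in HSPC with array weights. With HSPC replicates 3 and 4 alone, 3 genes were higher in each lineage, a smaller share than among genes at or above the median level. In MEG over ERY, 1 gene (Ddx10) was higher in the fit of 8 arrays, with either pair of HSPC arrays and among genes at or above the median level, and 1 was lower after quantile normalization and at an FDR of 1%. Leaving out each array gave 1 to 3 genes lower and 0 to 1 higher in MEG over ERY (1 lower without MEG replicate 1 or 4 or ERY replicate 3 or 4), and 0 to 1 higher in MEG over HSPC. The deviations of same-numbered arrays correlated from -0.345 to 0.40, above 0.1 in 5 of 12 pairs. Arrays of different numbers were not compared, so this does not settle whether the replicates were paired. With a replicate block 16, 14 and 2 genes were lower in MEG over HSPC, ERY over HSPC and MEG over ERY. The cause of these changes was not tested. With 4 arrays a population, a difference near its standard error was not detectable, which holds most for genes whose HSPC arrays split.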
